A study of Mus musculus with 2 samples.

Results

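The genes described here are those of cell death and of the p53 response: the stress-responsive transcription factor p53 and its targets, the BCL2 family, caspases and the apoptosome, and the machinery of necroptosis and pyroptosis. They were chosen by name, from a list of 43 gene symbols, out of 23356 symbols in the deposited table, and all 43 were found there. Total RNA of whole mouse retinas, taken on postnatal day 15, was sequenced in 1 library of a control and 1 of a triple mutant. Both genotypes were flox/flox at Dnmt1, Dnmt3a and Dnmt3b, which encode DNA methyltransferases. The control was negative for Rx-Cre, and the mutant was positive, so that Cre, driven by sequence of the retinal gene Rx, could cut the floxed alleles in the retinal lineage. The controls had no Cre, so an effect of Cre itself and an effect of the lost alleles cannot be told apart. The strain label reads C57BL/6 on the control and C57BL/7 on the mutant, and the sources used here do not say whether animals were pooled.

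In mitochondrial apoptosis, BH3-only proteins sense damage and release the pore formers Bax and Bak from survival proteins such as Bcl2, Bcl-xL and Mcl1. Cytochrome c then leaves the mitochondria and, with Apaf1, activates caspase 9 and its downstream caspases, which Xiap can block. p53 feeds this pathway through targets such as Bbc3 and Pmaip1 and also drives genes of cell cycle arrest and of its own turnover, among them Cdkn1a and Mdm2. Necroptosis, through Ripk3 and Mlkl, and pyroptosis, through inflammatory caspases and gasdermin D, are lytic forms of death that are linked to innate immunity. In the developing retina, apoptosis removes surplus neurons, and in retinal disease it is a common route of photoreceptor loss.

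Levels are FPKM, fragments scaled to transcript length and library size, summed over a gene's transcripts. The low values came in steps of whole fragments, by which 1 FPKM over 2 kb stood for about 96.6 fragments of the control library and 112 of the mutant one. Ranges in brackets after a ratio are 95% intervals that cover counting error only. Each group had 1 library, so no difference below has a replicate check and no test between genotypes was possible. Ratios on the log2 scale are of FPKM plus 1, which understates the ratio of low genes. A gene counted as measured if either library gave it 1 FPKM or more, and as past the size rule when its log2 ratio reached 1 in either direction; a second, milder rule was 1.5-fold on the same scale. Of the targeted genes, Dnmt1 had 21.7 FPKM in the control against 11.6 in the mutant, Dnmt3a 87.4 and 56.0, and Dnmt3b 1.03 and 0.827; levels over whole transcripts do not check the deleted exons.

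Of the 43 genes, 33 were measured. Among them 2 were higher in the mutant library by the size rule, Gadd45b and Bik, where 1.84% of 13280 measured genes were. None was lower by it, where 0.648% of measured genes were. By the 1.5-fold rule 5 were higher (4.29% of measured genes), adding Gadd45a, Bmf and Gsdmd, and 0 were lower (3.04%). Of the 33, 24 had a log2 ratio above 0, as did 50% of measured genes, and the median was 0.15, where that of all measured genes was close to 0. This count is partly set by the filter: Bik, Hrk, Casp8 and Gsdmd were measured only through the mutant library and had to be higher in it, and Perp was measured only through the control. Among the 28 with at least 1 FPKM in both libraries, Gadd45b alone passed the size rule upward (1.04% of 12652 such genes) and 3 passed the 1.5-fold rule upward (3.04%), and 20 lay above 0 (49.7% of such genes did) and the median was 0.09. The central 50% of measured genes ran from -0.16 to 0.15 on the log2 scale and the central 95% from -0.63 to 0.82. Inside the central 50% lay 13 of the 33, above it 17 and below it 3. In the authors' deposited table, Cuffdiff called 1 of 46 tested transcripts of these genes significant, that of Bik, where it called 0.353% of 19556 tested transcripts in either direction.

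**Figure D1:**
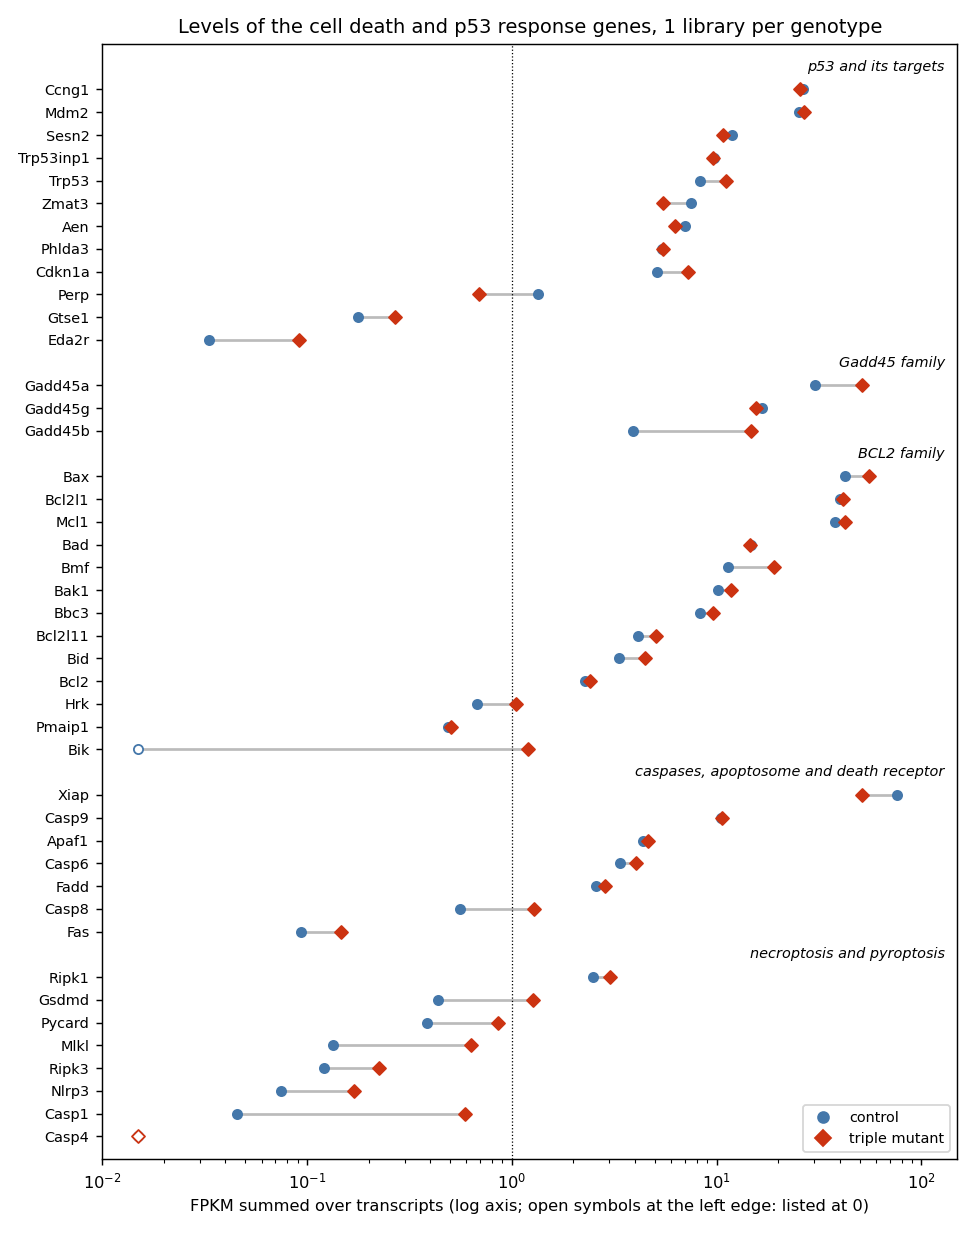
FPKM of each of the 43 genes in the control library (circles) and the triple mutant library (diamonds) on a log axis, grouped by role, with a dotted line at 1 FPKM. Grey lines join the 2 values of a gene: most are short, and that of Casp1 is the longest between values above 0. Open symbols at the left edge mark values listed at 0 (Bik in the control, Casp4 in both), and the necroptosis and pyroptosis genes other than Ripk1 lie near or below 1 FPKM in both libraries.

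The gene of p53 and 11 of its targets, grouped apart from the Gadd45, BCL2 and caspase genes, lay on both sides of the control level, and none of these 12 passed a size rule. Of the targets grouped with their families below, Gadd45a, Bax and Bbc3 had more FPKM in the mutant library, and Gadd45a passed the 1.5-fold rule. Pmaip1, also grouped below, was under 1 FPKM in both libraries and close to its control level (0.488 and 0.502 FPKM). Trp53 (chromosome 11, 69580359 to 69591873, plus strand, GENCODE M21 on GRCm38) had 8.31 FPKM in the control against 11.1 in the mutant, 1.33-fold (1.21 to 1.47). Cdkn1a, which encodes the cell cycle inhibitor p21, had 5.13 and 7.25 FPKM, 1.41-fold (1.25 to 1.60). Its log2 ratio of 0.43 lay above that of 93.4% of measured genes, and that of Trp53, 0.37, above 91.8%. Both were below the 1.5-fold rule. Mdm2, which encodes the ubiquitin ligase that degrades p53, had 25.4 and 26.8 FPKM, 1.06-fold (1.01 to 1.10). The other targets most used as readouts stood close to their control level. Ccng1, the cyclin G1 gene, had 26.5 and 25.5 FPKM, Phlda3, an Akt repressor gene, had 5.43 and 5.47, and Trp53inp1, which encodes a nuclear partner of p53, had 9.70 and 9.63. Sesn2, a stress-induced inhibitor of mTORC1 signalling, had 11.9 and 10.7 FPKM, and the nuclease gene Aen had 7.01 and 6.24. The 2 targets with the lowest ratios were the zinc finger gene Zmat3, with 7.53 and 5.47 FPKM (0.727-fold, 0.688 to 0.769), and Perp, a gene of desmosomes in epithelia, with 1.34 and 0.690 FPKM (0.515-fold, 0.377 to 0.698). Of the 12 genes of this group 10 were measured, 4 above 0 and 6 below, with a median log2 ratio of -0.03, and 0 passed either size rule. The mitotic gene Gtse1 (0.177 and 0.268 FPKM) and the death receptor gene Eda2r (0.0332 and 0.0918) were below 1 FPKM in both libraries. Perp was lower beside differences in markers of neighbouring tissue: the 18 markers of lens, cornea and ciliary body summed to 240 FPKM in the control against 13.8 in the mutant, where 2 of them were listed at 0. Nearly all of that sum came from lens crystallins such as Cryaa (55.7 and 0.192 FPKM) and Cryba1 (31.8 and 0.136), which had the largest log2 ratios in size. The cornea keratin genes Krt12 (0.158 and 0.313) and Krt5 (0.0203 and 0.0174) were under 1 FPKM in both libraries. Of the 13 pigment epithelium markers, 11 were measured and 9 were lower by the size rule, among them Ttr (79.1 and 2.49 FPKM), and none was listed at 0; their sum, 463 and 352 FPKM, was mostly Rlbp1 (309 and 343), which Mueller glia also express. The part of these tissues in the Perp difference was not tested. In whole retina, fewer cells of a type and less RNA per cell cannot be told apart.

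The promoters of this group are shown because several carry the p53 half-site, the 10-base unit that p53 binds in pairs. It was searched by its consensus, with no mismatch and on both strands, in the 250 bases before each RefSeq start (GRCm38.p6). It lay in 9 of 53 windows of the 37 genes that have one (17.0%), against 7.13% of 32851 windows of all genes. Bik, Gsdmd, Perp, Pmaip1, Trp53inp1 and Zmat3 have no window in the table. A match is a description of letters and was not tested as a binding site. The windows of Cdkn1a (chr17:29090729-29090978, plus strand), Mdm2 (chr10:117710759-117711008, minus strand) and Trp53 (chr11:69580109-69580358, plus strand) read as follows, with the half-site in capitals.
Cdkn1a, upstream start: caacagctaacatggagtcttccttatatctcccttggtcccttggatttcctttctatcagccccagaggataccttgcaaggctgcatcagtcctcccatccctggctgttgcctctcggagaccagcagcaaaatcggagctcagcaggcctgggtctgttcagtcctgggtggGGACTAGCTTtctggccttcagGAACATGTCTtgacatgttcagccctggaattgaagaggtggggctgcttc
Mdm2: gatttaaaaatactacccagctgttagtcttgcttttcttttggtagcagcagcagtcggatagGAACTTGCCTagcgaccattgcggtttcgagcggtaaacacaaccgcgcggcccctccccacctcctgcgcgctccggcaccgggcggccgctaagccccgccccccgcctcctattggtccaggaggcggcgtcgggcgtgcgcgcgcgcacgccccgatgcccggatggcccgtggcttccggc
Trp53: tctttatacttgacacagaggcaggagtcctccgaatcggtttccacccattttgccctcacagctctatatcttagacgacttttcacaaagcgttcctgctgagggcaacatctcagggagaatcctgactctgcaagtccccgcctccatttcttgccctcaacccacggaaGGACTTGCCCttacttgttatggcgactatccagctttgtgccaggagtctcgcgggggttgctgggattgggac
The Cdkn1a window, with 2 half-sites, is that before the more upstream of its 2 starts. The window before its downstream start had 0. The other matches were 1 each in Gadd45a, Bax, Ccng1, Aen, Nlrp3 and the most downstream of the 3 Bmf windows. Among genes close to the control level Mdm2 had a match and Phlda3 had none, and among those above it Gadd45a had a match and Gadd45b had none.

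**Figure D2:**
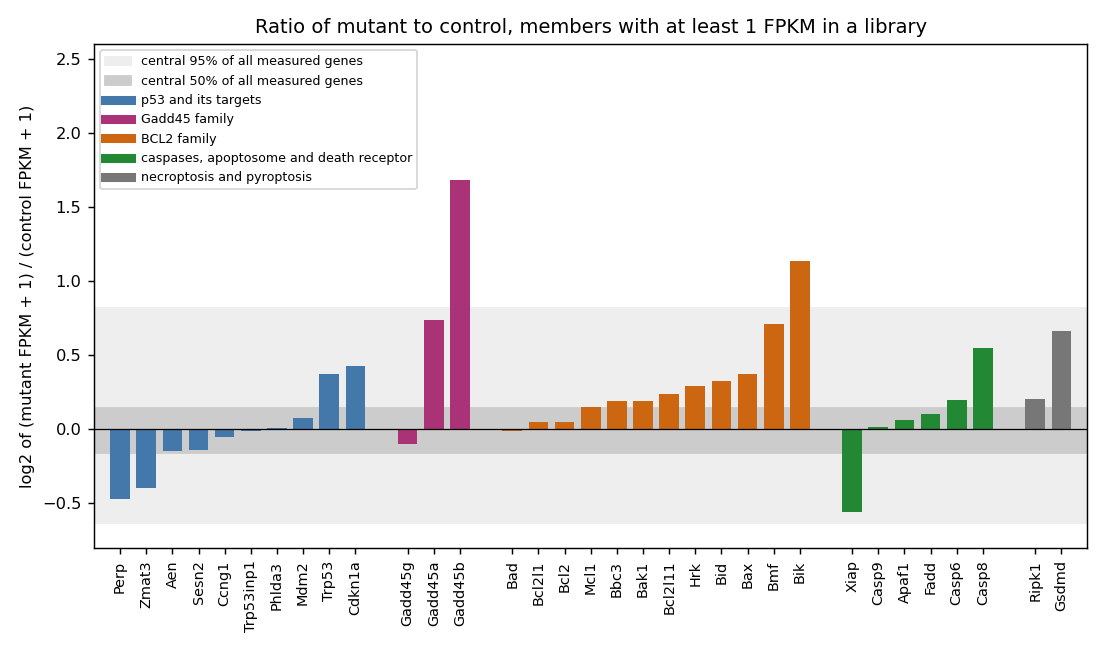
Bars give the log2 ratio of mutant to control FPKM, each plus 1, for the 33 measured genes in order within their group; dark and light bands mark the central 50% and 95% of all measured genes. Gadd45b and Bik stand above the light band, and the p53 targets lie on both sides of 0.

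Of the Gadd45 genes, small acidic proteins that couple stress to cell cycle arrest and to MAP kinase signalling, 2 of 3 were higher in the mutant library. Gadd45b (chromosome 10, 80930073 to 80932204, plus strand) had 3.90 FPKM in the control against 14.7 in the mutant, 3.77-fold (3.24 to 4.38), above the log2 ratio of 99.2% of measured genes. Gadd45a, the p53-responsive member on chromosome 6 (67035096 to 67037457 of the minus strand), had levels of 30.2 and 51.1 FPKM, 1.69-fold (1.59 to 1.80), and its log2 ratio was 0.74. Gadd45g had 16.7 and 15.6 FPKM, 0.931-fold (0.842 to 1.03). Gadd45a thus remained the most abundant of the 3, at 7.74 times the FPKM of Gadd45b in the control and 3.47 times in the mutant. In the authors' deposited table the Gadd45b transcript had p = 0.00425 and q = 0.426, and that of Gadd45a p = 0.04005 and q = 0.999, from a comparison of single libraries. Exons of Gadd45a overlap the opposite-strand gene E230016M11Rik (3.31 and 4.92 FPKM) by up to 317 bases, and the sources used here do not say whether strand was used in counting.

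The BH3-only genes, the sensors of the BCL2 family, held the one member listed at 0 in the control only. Bik (chromosome 15, 83526862 to 83544634, plus strand), which encodes a BH3-only protein of the endoplasmic reticulum, was listed at 0 FPKM in the control against 1.20 in the mutant, about 53.5 fragments. In the authors' deposited table it had p = 5e-05 and q = 0.0184. A floor of 3 fragments for this transcript was 0.0784 FPKM in the control. Bmf, whose product is released from the cytoskeleton to bind survival proteins (chromosome 2, 118528757 to 118549687 of the minus strand), had levels of 11.3 and 19.2 FPKM, 1.69-fold (1.61 to 1.77), with p = 0.0238 and q = 0.904 in the authors' deposited table. Hrk, a neuronal BH3-only gene, had 0.677 and 1.05 FPKM, 1.55-fold (1.28 to 1.88). The remaining sensors differed less. Bid, which links death receptors to mitochondria, had 3.35 and 4.45 FPKM (1.33-fold, 1.15 to 1.53), and Bcl2l11, which encodes Bim, had 4.14 and 5.05 (1.22-fold, 1.12 to 1.33). Of the direct p53 targets among the sensors, Bbc3, which encodes Puma, had 8.29 and 9.60 FPKM (1.16-fold, 1.05 to 1.28), and Pmaip1, which encodes Noxa, had 0.488 and 0.502 (1.03-fold, 0.722 to 1.47). Bad, a sensor controlled by phosphorylation, had 14.7 and 14.6 FPKM (0.989-fold, 0.905 to 1.08). Of the 8 sensors 7 were measured, with a median log2 ratio of 0.29, which was that of Hrk. By the size rule 1 was higher, Bik, and by the 1.5-fold rule 2 were, Bik and Bmf. Of all measured genes, 1.84% and 4.29% were higher by these rules. Bik and Hrk were measured only through the mutant library and had to be higher in it. Bid shares up to 628 bases of exon with Bcl2l13 on the opposite strand (15.4 and 12.9 FPKM), and Bad up to 517 with Gpr137 (32.9 and 30.6). The same holds for Bak1 with Ggnbp1 (1.38 and 1.47) and for Ripk1 with Serpinb6a (5.46 and 6.21).

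The pore former gene Bax and the survival genes Bcl2l1 and Mcl1 were the most abundant of the 13. Bax, a p53 target, had 42.4 FPKM in the control against 55.2 in the mutant, 1.30-fold (1.22 to 1.39), and Bak1 had 10.2 and 11.8, 1.16-fold (1.07 to 1.25). The survival genes stood close to the control: Bcl2l1, which encodes Bcl-xL, had 40.2 and 41.6 FPKM (1.04-fold, 0.994 to 1.08). Mcl1, whose protein turns over fast, had 37.98 and 42.2 FPKM (1.11-fold, 1.07 to 1.15), and Bcl2 had 2.29 and 2.40 (1.05-fold, 0.954 to 1.16). Bcl2l1 and Mcl1 were thus the most abundant of these 3, with Bcl2l1 at 17.6 times the FPKM of Bcl2 in the control and 17.3 times in the mutant. The ratio of Bax to Bcl2l1 FPKM was 1.06 in the control against 1.33 in the mutant. Over the 13 genes of the family, 12 were measured, with a median log2 ratio of 0.21. Of these 11 lay above 0, where 50% of all measured genes did. Bik and Hrk, measured only through the mutant library, had to lie above 0. A member of the family outside the 43, the survival gene Bcl2l2, which encodes Bcl-w, had 63.4 FPKM in the control against 50.1 in the mutant (0.791-fold, 0.769 to 0.814). It was the most abundant gene of the family in the control library.

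Downstream of mitochondria, the gene of the caspase inhibitor was lower and the caspase genes were near or above the control. Xiap (chromosome X, 42059679 to 42109656, plus strand), whose product blocks caspases, was the most abundant of the 43 genes in the control, with 75.9 FPKM, and had 51.3 in the mutant, 0.675-fold (0.663 to 0.689). Its log2 ratio of -0.56 was the lowest of the 33 measured genes, above that of 3.52% of measured genes, and missed the 1.5-fold rule. The authors' deposited table gave it p = 0.0747 and q = 0.999. Casp9, the initiator caspase of the apoptosome, had 10.5 and 10.6 FPKM (1.01-fold, 0.951 to 1.08), and its scaffold Apaf1 had 4.37 and 4.62 (1.06-fold, 0.983 to 1.14). Xiap was thus at 7.24 times the FPKM of Casp9 in the control and 4.84 times in the mutant. The downstream caspase gene Casp6 had 3.38 and 4.03 FPKM (1.19-fold, 0.999 to 1.43). In the death receptor branch, Casp8, its initiator caspase, had 0.561 and 1.28 FPKM (2.29-fold, 1.72 to 3.09), and the adaptor gene Fadd had 2.57 and 2.84 (1.11-fold, 0.978 to 1.25). The receptor gene Fas was barely detected, with 0.0933 and 0.147 FPKM, about 6 and 11 fragments. Of these 7 genes 6 were measured, Casp8 only through the mutant library, with a median log2 ratio of 0.09 and 0 past either rule. Among genes of at least 5 FPKM only Xiap and Casp9 were left and the median was -0.27.

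Genes of necroptosis and pyroptosis were low in both libraries, and 7 of the 8 had more FPKM in the mutant library, as did 40.3% of all 23356 symbols; Casp4 was listed at 0 in both. Of all symbols under 1 FPKM in both libraries, 27.5% of 10058 had more in the mutant and 49.6% had the same in both. Ripk1, a kinase shared by survival and death signalling, was the most abundant, with 2.48 FPKM in the control against 3.003 in the mutant (1.21-fold, 1.10 to 1.33). Gsdmd (chromosome 15, 75862327 to 75867408, plus strand), the pore-forming executioner of pyroptosis, had 0.434 and 1.27 FPKM (2.92-fold, 2.005 to 4.47). Casp1, the caspase that cleaves it (chromosome 9, 5298517 to 5307265, plus strand), had 0.0457 and 0.588 FPKM, which was about 2.98 fragments against 44.5 (12.9-fold, 4.14 to 64.9). These folds rest on few fragments in the control library. Mlkl, the membrane-disrupting executioner of necroptosis, had 0.134 and 0.630 FPKM, about 11.8 and 64.7 fragments (4.71-fold, 2.49 to 9.47), and its activating kinase gene Ripk3 had 0.121 and 0.225, about 10 and 22.1 fragments (1.87-fold, 0.846 to 4.41). The inflammasome adaptor gene Pycard had 0.386 and 0.858 FPKM, and the inflammasome sensor gene Nlrp3 had 0.0747 and 0.169 (2.26-fold, 1.20 to 4.55). In the authors' deposited table the p-values of Casp1, Gsdmd and Mlkl were 0.107, 0.105 and 0.0799, all with q = 0.999. Only Ripk1 and Gsdmd were measured by the rule, and 0 of the 8 passed a log2 ratio of 1.

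Markers of microglia and of the interferon response, where genes such as Casp1, Mlkl and Zbp1 are known to be expressed, were higher as well. The 20 microglia and macrophage markers summed to 68.5 FPKM in the control against 228 in the mutant, 3.34-fold; the size rule was passed upward by 12 of the 19 measured and downward by 0, and none of the 20 was listed at 0 in either library. The 22 interferon response genes summed to 89.3 and 1053 FPKM, 11.8-fold. The size rule was passed upward by 19 of the 21 measured and downward by 0, and none was listed at 0. Ifit2 (4.07 and 8.02 FPKM) and Cmpk2 (5.63 and 11.5) were higher but fell short of the rule. Some genes, such as Lyz2 of the microglia list and Ifit1 of the interferon list, were measured only through the mutant library. Lyz2 (0.851 and 10.8 FPKM) and C1qa (5.84 and 31.2) had the largest log2 ratios of FPKM plus 1 among the former, and Isg15 (1.04 and 41.5) and H2-K1 (8.03 and 158) among the latter. The 8 necroptosis and pyroptosis genes summed to 3.68 and 6.74 FPKM, 1.83-fold, and the pyroptosis genes alone to 0.941 and 2.88, 3.07-fold. The part of microglia or of interferon signalling in these differences was not tested. Markers of retinal neurons differed less: the 11 cone markers summed to 1501 and 890 FPKM, the 11 ganglion cell markers to 1056 and 710, and the 12 rod markers to 15387 and 18278. The part of these shifts in the levels of the apoptosis genes was not tested either.

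**Figure D3:**
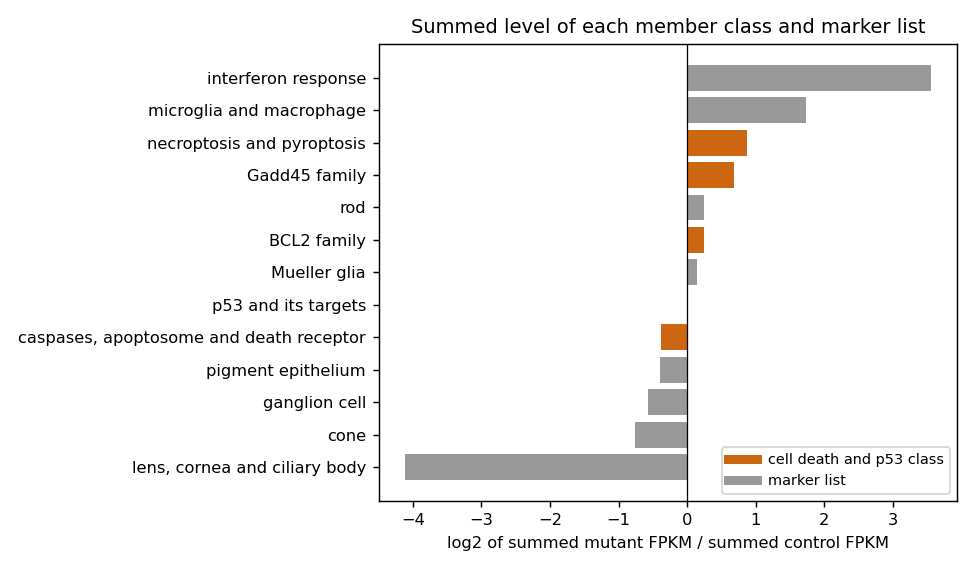
Bars give log2 of the summed mutant FPKM over the summed control FPKM for the 5 groups of cell death and p53 genes (orange) and for marker lists of cell types and of the interferon response (grey). Necroptosis and pyroptosis genes, at 1.83-fold, come next after the interferon and microglia lists, and the p53 group lies at 1.01-fold.

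Other genes of the same pathways, listed by role, were compared in the same way. Of 96 listed, 65 were measured, with a median log2 ratio of 0.03. By the size rule 1 was higher and none lower, where 1.84% and 0.648% of measured genes were. By the 1.5-fold rule 6 were higher and 2 lower, where 4.29% and 3.04% of measured genes were. Of those higher, Zbp1, Bcl2a1b and P2rx7 were measured only through the mutant library and had to be higher in it. The gene past the size rule was Zbp1, a sensor of nucleic acid in Z conformation that activates Ripk3, with 0.0113 FPKM in the control, about 1 fragment, and 5.18 in the mutant (459-fold, 81.9 to 18209). Txnip, which encodes a thioredoxin-binding protein linked to the inflammasome, had 5.93 and 12.8 FPKM (2.15-fold, 1.98 to 2.34), a log2 ratio of 0.99. Of 25 measured further genes of the p53 pathway, 0 were higher by 1.5-fold and 1 was lower, the lipid transfer gene Pltp (21.0 and 10.8 FPKM). The kinase gene Plk2 had 23.6 and 34.3 FPKM (1.45-fold, 1.39 to 1.52). Of 16 further apoptosis genes none passed either rule. The mitochondrial protease gene Htra2 had 14.7 and 18.1 FPKM (1.23-fold, 1.14 to 1.33). In the death receptor branch, Tnfrsf1a, which encodes a receptor for tumour necrosis factor, had 5.19 and 9.36 FPKM (1.80-fold, 1.62 to 2.01), and Tnfaip3, an inhibitor of that signal, had 56.8 and 35.1 (0.619-fold, 0.601 to 0.636). Of the further BCL2 genes, the survival gene Bcl2a1b had 0.308 and 1.03 FPKM (3.36-fold, 1.64 to 7.53); it is a member of a family of close copies, and its separate level is uncertain.

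Transcripts of the same gene were compared where at least 2 were listed, which was so for 12 of the 43. No gene with at least 1 FPKM in both libraries differed in transcript share by 30 points. Trp53 came closest. Its transcript NM_011640 had 4.87 FPKM in the control against 9.40 in the mutant, and NM_001127233 had 3.44 and 1.65, so the share of the former was 58.6% and 85.0%. In the authors' deposited table neither difference was called, with p = 0.106 and p = 0.274. The summed Trp53 level thus joined 2 transcripts whose estimates differed in opposite directions. With NM_011640 alone, the more abundant of the pair, the log2 ratio of Trp53 was 0.82, past the 1.5-fold rule. Of the Bcl2l11 transcripts, NM_207681 had 0.428 and 1.38 FPKM while the main one, NM_207680, had 3.47 and 3.58. The Apaf1 transcripts also differed in opposite directions, NM_001042558 with 1.61 and 2.51 FPKM and NM_009684 with 2.76 and 2.11. The minor Cdkn1a transcript NM_001111099, at 0 in the control, had 0.282 FPKM in the mutant, 3.89% of the gene. In the second deposited table, which lists further transcripts, most of Bad was given to NM_001285453 (18.4 and 20.1 FPKM), absent from the first table, and Bad summed to 22.5 and 23.9 FPKM.

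**Figure D4:**
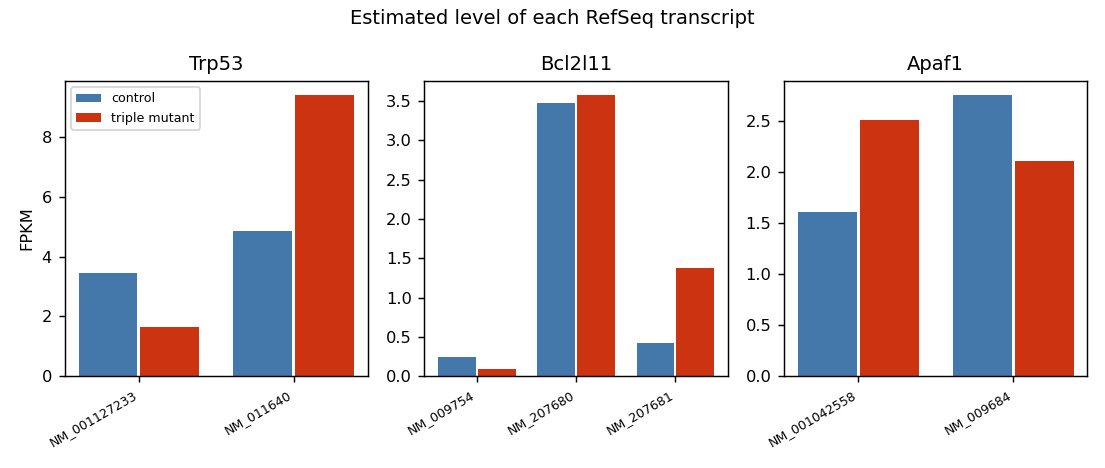
FPKM of each RefSeq transcript of Trp53, Bcl2l11 and Apaf1 in the control (blue) and the triple mutant library (red), 1 library each. In Trp53 and Apaf1 the 2 transcripts differ in opposite directions between the libraries.

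The targeted genes encode the enzymes that methylate CpG, so the CpG content of the promoters was described. The median over all 32851 windows of 250 bases was 6 CpG, with quartiles of 2 and 16. The BCL2 family had a median of 18 over 19 windows, the p53 group 16 over 12, and the necroptosis and pyroptosis genes 3.5 over 10. Windows of the same gene can overlap, as the 2 of Casp4 do, and are not separate promoters. By the richest window of each gene, the medians were 21 over 11 genes, 18 over 9 and 4 over 7. In 44 of the 53 windows, bases 11 to 40 after the start lay in a known transcript of the gene. Of the 7 necroptosis and pyroptosis genes with a window, 5 had fewer CpG than the median of all windows in even their richest window; the other 2 were Ripk1, with up to 32, and Ripk3, with 8. The promoters of Gadd45b (chr10:80929841-80930090, plus strand), with 22 CpG, and Casp1 (chr9:5298267-5298516, plus strand), with 1, are shown as a CpG-rich and a CpG-poor promoter of genes that were higher in the mutant library, with each CpG in capitals.
Gadd45b: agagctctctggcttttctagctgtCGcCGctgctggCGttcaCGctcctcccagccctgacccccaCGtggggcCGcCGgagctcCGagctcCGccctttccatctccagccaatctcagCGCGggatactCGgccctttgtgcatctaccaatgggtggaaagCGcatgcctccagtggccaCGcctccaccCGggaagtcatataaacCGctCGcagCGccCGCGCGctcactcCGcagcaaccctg
Casp1: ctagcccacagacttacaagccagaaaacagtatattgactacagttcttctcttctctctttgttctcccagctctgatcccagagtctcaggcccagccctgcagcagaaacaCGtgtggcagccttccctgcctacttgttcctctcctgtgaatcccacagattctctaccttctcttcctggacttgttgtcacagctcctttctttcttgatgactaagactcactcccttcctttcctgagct
The core of the interferon response element, searched on both strands as a pair of GAAA repeats parted by any 2 bases, was in 0 of the 53 windows and in 2.98% of all windows. Methylation was not analysed here.

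**Figure D5:**
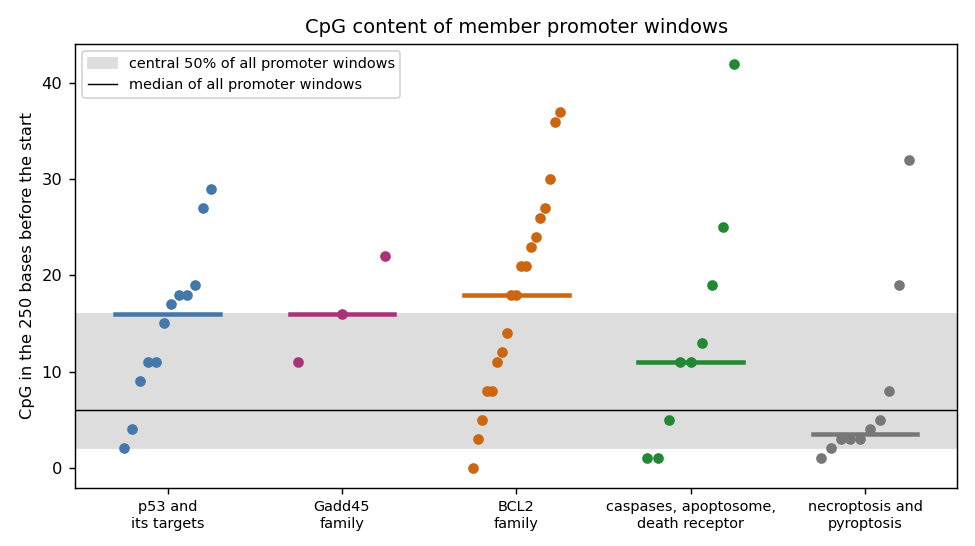
Number of CpG in the 250 bases before each RefSeq start, 1 dot per window and grouped by role, with the median of each group as a bar; the grey band and black line give the central 50% and the median of all windows. Windows of necroptosis and pyroptosis genes lie mostly below the line and those of the BCL2 family mostly above it.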

How the data were processed

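Total RNA from retinas was sequenced in 1 library per genotype. The submitters' processing notes list TopHat2 2.0.8, Cuffdiff 2.1.1 and the build mm10; the sources used here do not give read layout, use of strand or annotation. The authors deposited FPKM per RefSeq transcript in 2 tables (30608 rows with gene symbols and 33362 without), each with a log2 fold change, a test statistic used as a score, a p-value and a q-value, per the file headers.

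FPKM was summed per symbol in the first table. Genes needed at least 1 transcript with status OK and none failed. Size was log2 of the ratio after a pseudocount of 1 FPKM; groups of 1 library allow no test. Fragments were recovered from steps in low values of single-transcript genes of at least 3000 bases (76% whole within 10% of a step in the control, 72.3% in the mutant), with GENCODE M21 lengths less 150 bases, and gave exact binomial intervals; Pycard had no matching length and has none. Promoter sequences are RefSeq's (GRCm38.p6). The size rule and intervals were run on simulated data that held counting error only. That cannot check them against variation between libraries. The members and lists were chosen with earlier results of these data known. Named were all 43 members, other pathway genes past a log2 ratio of 1 and the 2 largest ratios of each pathway list, of which 1 gene is not reported here. Transcripts below the share rule, and the promoters of Casp1 and Gadd45b, were chosen after their values were seen. Alternatives were other pseudocounts and filters, the second table (98.4% of rows matched to a symbol), centring and the most abundant transcript. Python 3.11.15, pandas 2.3.3, numpy 2.4.6 and scipy 1.17.1 were used.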

Additional observations from a re-analysis of the deposited data

How the results depend on the processing

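Of 119 counts and medians recomputed under alternatives, 103 stayed within 1.5 times (counts) or 0.1 on the log2 scale (medians). With a pseudocount of 0.1 FPKM, 4 members were higher by a log2 ratio of at least 1 (2.94% of measured genes), 1 was lower by 1.5-fold, 4 other pathway genes were higher by a log2 ratio of 1, and the necroptosis and pyroptosis median was 0.81. With 5 FPKM, 1 member passed a log2 ratio of 1 and 2 passed 1.5-fold, 3 other pathway genes passed 1.5-fold, and that median was 0.15. Among genes of at least 5 FPKM, 1 and 3 members were higher by the 2 rules, and the median of the caspase group turned from 0.09 to -0.27, since only 2 of its genes were left. Requiring a mean of at least 1 FPKM, an alternative chosen after seeing the data, gave 1 and 3 members and a necroptosis and pyroptosis median of 0.20. In the second table and with the most abundant transcript only, 2 other pathway genes passed a log2 ratio of 1. Apart from the 2.94%, the share of all measured genes under each setting is not given here. The counts thus show how far the settings moved them, and not an excess over other genes. Gadd45b kept a log2 ratio of at least 1 in every setting (1.15 to 1.89); Bik had 0.31 with a pseudocount of 5 FPKM and did not pass the filters of 5 FPKM and of the mean. Ccng1, Trp53inp1 and Bad, close to 0, changed sign in the second table, and Aen and Apaf1 with the most abundant transcript only; the cause was not tested. No paired analysis was possible because each group has 1 library. Depth limits the genes under 1 FPKM, whose control values rest on few fragments.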
